A study of Mus musculus with 6 samples.

Results

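Genes annotated to axon guidance, axonogenesis, neurogenesis or nervous system development were examined in mouse choroid plexus from the lateral ventricles. They were chosen by their Gene Ontology text as deposited with the expression values: the biological process text had to hold at least 1 of these 4 terms. Genes also annotated to the cell cycle, cell adhesion, Wnt receptor signalling or angiogenesis were left out, as were those with transcription factor activity as a molecular function or a synaptic cellular component. Of 114 transcript clusters with a term, 43 were left out in this way and 71 remained, among 3956 clusters with a value. A transcript cluster is a set of array probes assigned to a gene, and 6 of the 71 clusters carry the symbols of several genes or loci.

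RNA came from that tissue, taken from Swiss Webster mice at embryonic day 15 (E15) and in the adult, and was hybridised to 6 Affymetrix mouse exon arrays, 3 for each age. According to the labels, each E15 array held a pool of 30 embryos of both sexes, and each adult array a pool of 10 females. The study's supplement gives a larger pool of embryos, calls them unsexed, and sets only a lower minimum for the adult pools. Both sources give the adults as females, so age and sex cannot be told apart in these values. The labels call both groups healthy and name no treatment or genetic change. The deposited values are 1 merged log2 number per age for each cluster, centred near 0, so a value gives the standing of 1 age against the other and not a level of expression. No column of these tables holds a single array, and the raw files of the arrays were not analysed here. No replicate error or test could therefore be computed from the merged values, and every difference below, adult minus E15 on the log2 scale, is a description of 2 merged values.

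The choroid plexus is a sheet of secretory epithelium over a stroma of vessels and connective tissue, and it grows out of the dorsal midline of the neural tube. Axon guidance molecules are secreted or membrane-bound ligands (semaphorins, Slits, netrins, ephrins) and their receptors (plexins and neuropilins, Robo proteins, Dcc and Unc5 proteins, Eph receptors), which steer growth cones by remodelling actin and microtubules. The same molecules act outside neurons, in epithelia, in vessels and in migrating mesenchyme, so an annotation to axon guidance does not place a transcript in a neuron.

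Of the 71 genes, 33 were at least 2-fold higher at E15 (46.5%) and 7 were at least 2-fold higher in the adult (9.86%). Among all 3956 clusters the corresponding shares were 24.4% and 22.9%. The remaining 31 genes differed by less than 2-fold. Of the adult genes, Nrn1 and Pcsk2 carry a term on evidence other than electronic inference, and the other 5 are annotated electronically only. With such evidence required, 26 genes were past 2-fold at E15 and 2 in the adult, of 50. By sign alone, 52 of 71 (73.2%) were higher at E15, against 2141 of all clusters (54.1%). Their median difference was -0.96, or 1.94-fold, whereas that of all clusters was -0.16, or 1.12-fold. The differences ran from -3.49 for Bex1 to 2.90 for Pcsk2. When each age was re-centred on the median of all clusters, which added 0.15 to every difference, 30 genes were past 2-fold at E15 and 9 in the adult, with Sema5b, Pax6 and Ntn1 lost at E15 and Mbnl1 and Tacc2 gained in the adult.

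How a cluster came to have a value bears on these shares. One deposited table, at the gene level, is limited to clusters with a corrected p of at most 0.05 in the authors' test and a fold of at least 2. The other is limited to clusters selected on a splicing index, a score of exon use. All 40 genes past 2-fold were in the gene-level table, where 33 (82.5%) were higher at E15, compared with 925 of its 1805 clusters (51.2%). The other 31 genes had a value only through the splicing list. Of these, 19 (61.3%) were higher at E15, near the 56.5% (1216 of 2151) of all clusters with a value only through that list. Their differences lay between -0.997 and 0.97. Genes with the same annotation in neither table were not analysed here. Just inside the 2-fold threshold stood Ntn1 (-1.11) and Ntrk2 (1.06), and just outside it Slit2 (-0.997) and Tacc2 (0.97).

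**Figure D1:**
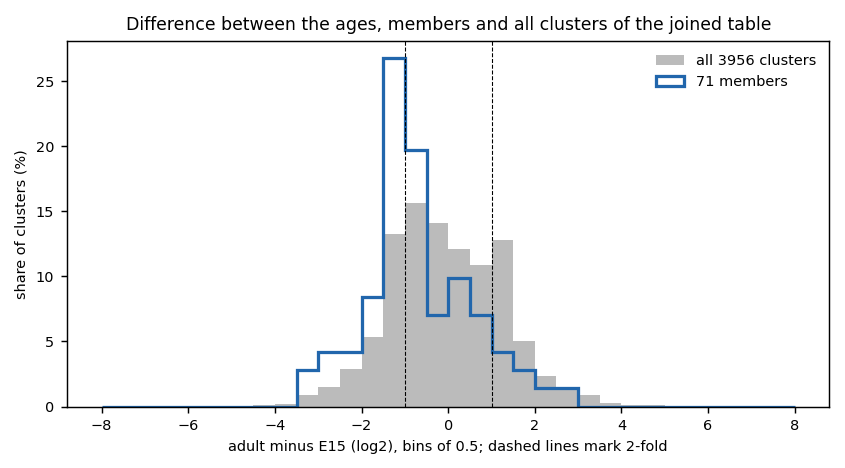
Distribution of the difference adult minus E15 (log2) over all 3956 clusters and over the 71 axon guidance and nervous system development genes, with dashed lines at 2-fold. The 71 genes lie more to the left, towards E15, with a median of -0.96 against -0.16 for all clusters.

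A gene can carry several of the terms, so counts by term overlap. The shares of all clusters past 2-fold, to be set beside them, were 24.4% at E15 and 22.9% in the adult. Of the 21 genes annotated to axon guidance, 14 (66.7%) were at least 2-fold higher at E15, none was at least 2-fold higher in the adult, and the median difference was -1.23. The 17 genes annotated to axonogenesis held 7 past 2-fold at E15 (41.2%) and 1 in the adult (5.88%). The 47 annotated to nervous system development held 23 (48.9%) and 6 (12.8%). The 43 genes with a term that were left out by the exclusions had a median of -0.79, with 18 past 2-fold at E15 (41.9%) and 4 in the adult (9.30%). The widest gap among them was on the adult side, that of the growth factor Tgfb2 (4.21), and Nfasc (2.35), an adhesion protein of axons, was also higher in the adult. On the E15 side stood Reln (-2.20), a secreted protein that positions migrating neurons, and Nrg1 (-1.47), a ligand of ErbB receptors.

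**Figure D2:**
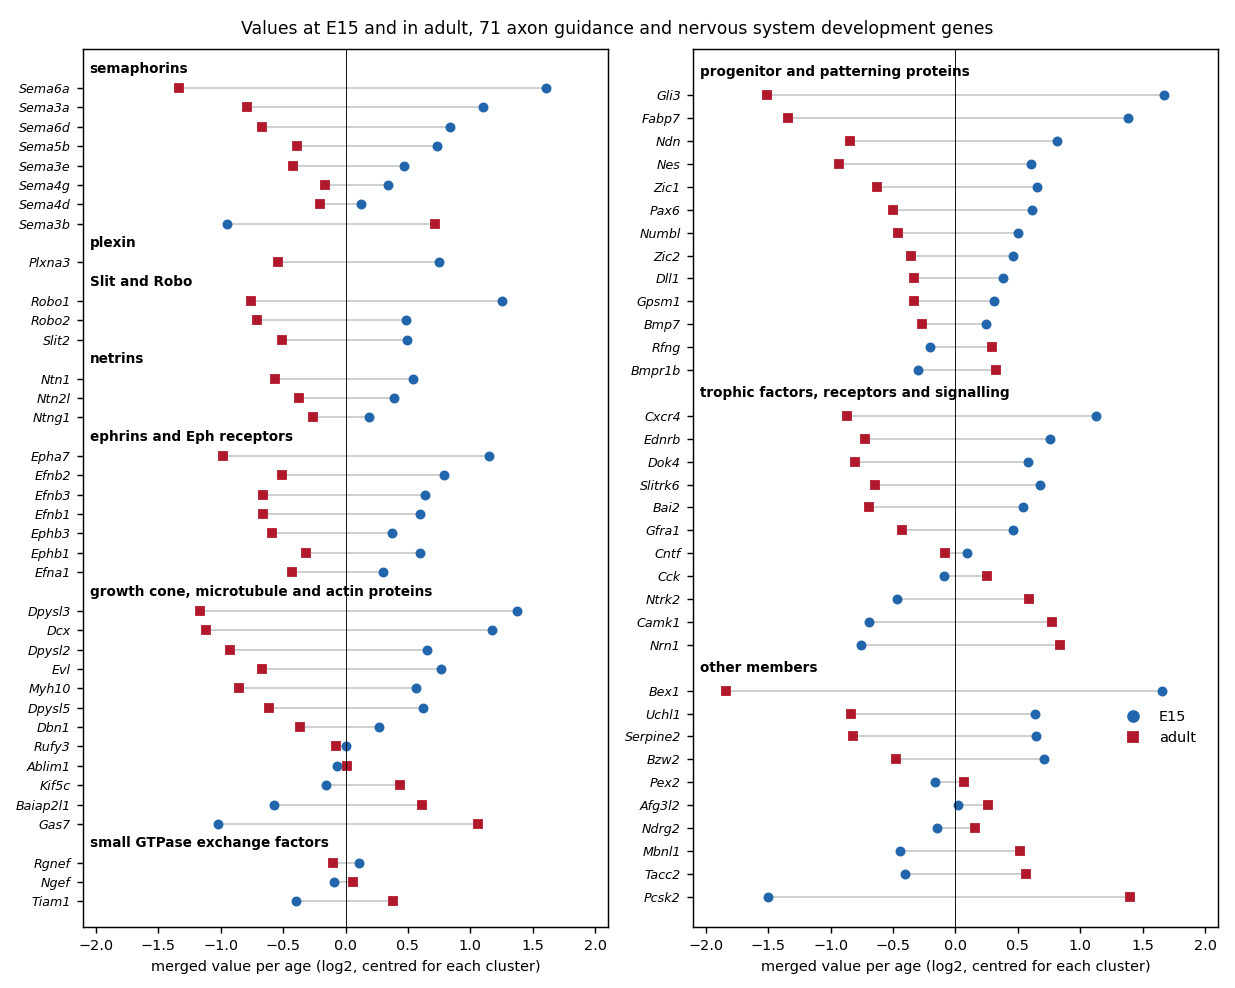
Merged log2 value of each of the 71 genes at E15 (blue circles) and in the adult (red squares), centred for each cluster and grouped by role. E15 lies above adult for 52 genes, and the widest gaps are those of Bex1, Gli3 and Sema6a at E15 and of Pcsk2 in the adult.

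The 22 ligands and receptors of the 4 guidance families stood almost wholly on the E15 side. Of these, 21 had the higher value at E15, 12 of them by at least 2-fold, and Sema3b was the exception. Over all clusters 54.1% were higher at E15 and 24.4% were past 2-fold there. The median difference of the 22 genes was -1.12. Outside these families, 31 of 49 genes were higher at E15 and the median was -0.71.

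Semaphorins are secreted or membrane-bound cues that act largely as repellents through plexins. Sema6a, a transmembrane semaphorin, had a value of 1.61 at E15 and -1.33 in the adult, a 7.68-fold difference. The secreted repellent Sema3a stood at 1.10 and -0.79 (3.71-fold), and its cluster is shared with a second, unnamed locus. Sema6d stood at 0.83 and -0.67 (2.84-fold). Sema5b was the remaining semaphorin past 2-fold at E15, with 0.73 against -0.39 (2.17-fold). The only semaphorin higher in the adult was Sema3b, also a secreted class 3 member, with a value of -0.95 at E15 and 0.72 in the adult, or 3.17-fold. Sema3a and Sema3b, of the same class, thus lay on opposite sides. Sema3e (-0.89), Sema4g (-0.51) and Sema4d (-0.33) were higher at E15 by less than 2-fold. Sema3e, the ligand of Plxnd1, also shares its cluster with another locus.

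Plxna3, a plexin that pairs with neuropilins to receive class 3 semaphorins, had 0.75 at E15 and -0.54 in the adult (2.44-fold). It was the only plexin that met the annotation rule. From a list of 11 plexins and neuropilins, 4 others had a value. Plxnc1 (-2.07), Plxnd1 (-1.96) and the class 3 co-receptor Nrp2 (-1.32) were all at least 2-fold higher at E15, and 1 was under 2-fold. None of the 5 plexins and neuropilins with a value was higher in the adult.

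Slit proteins repel axons and migrating cells through Robo receptors. Robo1 had 1.25 at E15 and -0.76 in the adult, a 4.02-fold difference, and Robo2 had 0.48 and -0.71, or 2.29-fold. Their ligand Slit2 stood at 0.49 and -0.51, a difference just under 2-fold. Ligand and receptors were thus all on the E15 side. Robo4, the endothelial member of the family, did not meet the rule and stood at -1.10, with a value from the splicing list only. Though past 2-fold, it thus did not meet the other limits of the gene-level table.

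Netrins attract growth cones through Dcc and repel them through Unc5 receptors. Ntn1 had 0.54 at E15 and -0.57 in the adult (2.16-fold), in a cluster shared with another locus. Netrin 2-like (Ntn2l in the files) and the membrane-anchored Ntng1 were under 2-fold, at -0.76 and -0.45. Of the receptors, none of which met the rule, Dcc (-1.93), Unc5b (-1.87) and Dscam (-1.67) were at least 2-fold higher at E15. The other receptors with a value were under 2-fold. Ntn4, a netrin of basement membranes that did not meet the rule either, ran the other way and was 3.57-fold higher in the adult (1.84). In a list of 16 netrins and netrin receptors, 9 had a value. Of these, 4 were past 2-fold at E15, 1 in the adult and 4 in neither direction, against 24.4% and 22.9% of all clusters past it.

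Ephrins are membrane-bound ligands that signal on contact with Eph receptor tyrosine kinases, and they set boundaries between cell populations. Epha7 had the widest gap of the family, with 1.15 at E15 and -0.98 in the adult (4.36-fold). All 3 B-type ephrins, which span the membrane, were past 2-fold: Efnb2 stood at 0.79 and -0.51, Efnb3 at 0.64 and -0.66, and Efnb1 at 0.60 and -0.66. Their folds, 2.46, 2.45 and 2.39, were close to each other. Ephb3 (-0.96), Ephb1 (-0.91) and the lipid-anchored ligand Efna1 (-0.73) were higher at E15 by less than 2-fold. Among Eph receptors that did not meet the rule, Ephb2 (-2.02), Epha3 (-1.80), Epha2 (-1.70) and Ephb4 (-1.09) were past 2-fold at E15. In a list of 22 ephrins and Eph receptors, 12 had a value. Of these, 8 were past 2-fold at E15 and none in the adult, against 24.4% and 22.9% of all clusters.

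Over 8 lists of guidance and growth cone genes, 125 in all, 52 had a value. At E15 29 of these were at least 2-fold higher and in the adult 4, namely Sema3b, Ntn4, Ntrk2 and Rtn4rl1, a receptor related to the Nogo receptor (1.14). Over all clusters 24.4% and 22.9% were past 2-fold in these directions. After re-centring, 24 of the 52 were past it at E15 and 4 in the adult, without Sema5b, Ntn1, Robo4, Ephb4 and Gap43. The 23 list genes that did not meet the annotation rule had a median of -1.09, with 13 past 2-fold at E15 and 2 in the adult. Of the 6 genes with a value in the lists of the Nogo pathway and of neurotrophins, none was past 2-fold at E15 and 2 were past it in the adult.

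**Figure D3:**
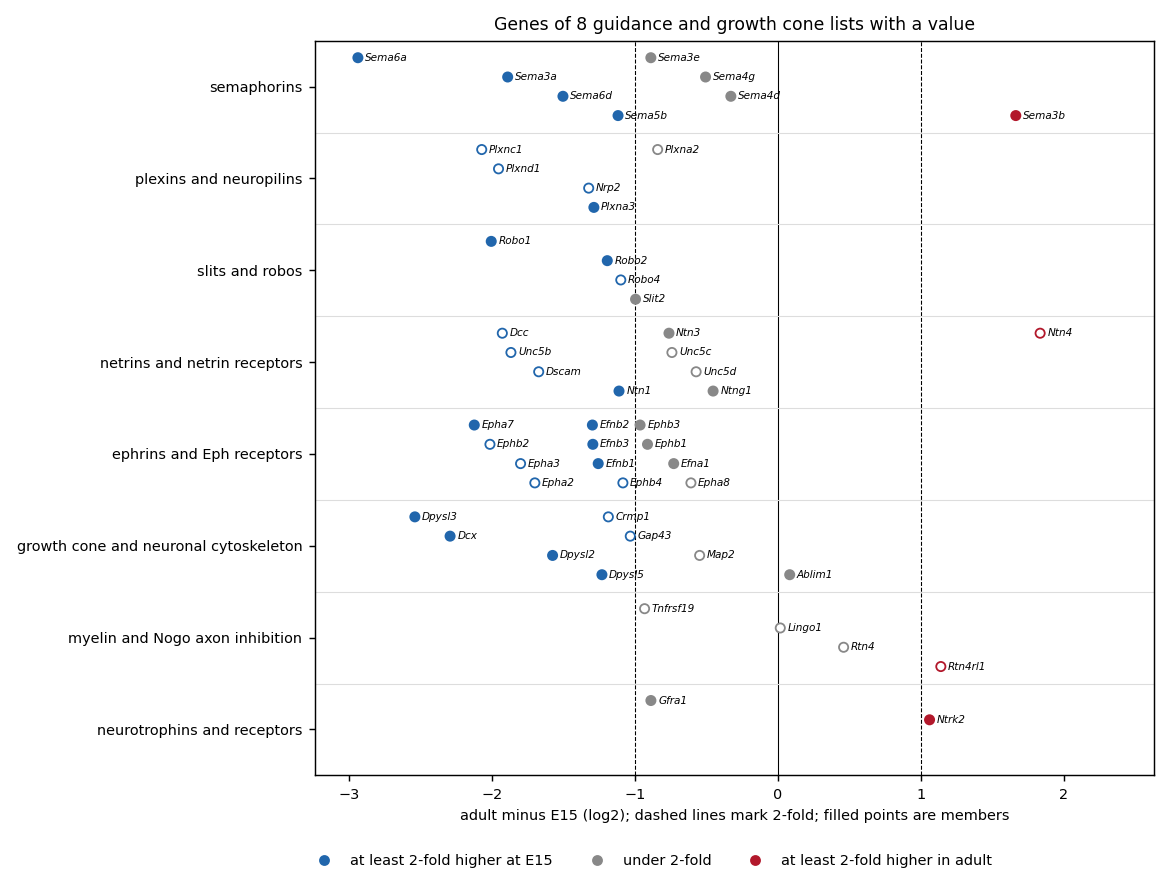
Difference adult minus E15 (log2) for the 52 genes of 8 guidance and growth cone lists that had a value, with dashed lines at 2-fold. Filled points are genes that met the annotation rule and open points those that did not. In the plexin, Slit and Robo, and ephrin rows every point lies left of 0.

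Proteins that carry out growth cone movement were mixed in direction. The collapsin response mediators, which bind tubulin and relay semaphorin signals, are represented by 3 of the 71 genes, and these 3 were at least 2-fold higher at E15. Dpysl3 had 1.37 at E15 and -1.17 in the adult (5.82-fold), Dpysl2 had 0.65 and -0.92 (2.98-fold), and Dpysl5 had 0.62 and -0.61 (2.35-fold). Their relative Crmp1, outside the rule, stood at -1.19. Dcx, a microtubule-binding protein of migrating young neurons, had 1.18 at E15 and -1.12 in the adult, a 4.91-fold difference. The growth cone protein Gap43, left out for its other annotations, was 2.05-fold higher at E15. The actin regulator Evl (-1.44) and the non-muscle myosin heavy chain Myh10 (-1.41) were also past 2-fold at E15. Gas7, a growth-arrest protein that binds actin, was 4.23-fold higher in the adult, with -1.02 at E15 and 1.06 in the adult. Baiap2l1, which links small GTPases to membrane curvature and actin, was 2.27-fold higher in the adult (-0.57 and 0.61). The actin-binding Dbn1 (-0.63), Rufy3 (-0.09, positive after re-centring) and Ablim1 (0.08) and the kinesin Kif5c (0.59) were under 2-fold. So were the 3 exchange factors of small GTPases, Rgnef (-0.21), Ngef (0.15) and Tiam1 (0.77).

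Among 13 genes of neural progenitors and patterning, 6 (46.2%) were at least 2-fold higher at E15 and none in the adult, against 24.4% and 22.9% of all clusters. Gli3, the Hedgehog pathway effector that patterns the dorsal telencephalon, had 1.67 at E15 and -1.51 in the adult, a 9.06-fold difference. Fabp7, the fatty acid binding protein of radial glia, had 1.38 and -1.34 (6.63-fold), and the intermediate filament Nes had 0.61 and -0.93 (2.91-fold). Fabp7 and Nes are widely used markers of neural progenitor cells. Ndn (-1.66), a growth suppressor of postmitotic neurons, and the DNA-binding regulators Zic1 (-1.28, in a shared cluster) and Pax6 (-1.11) completed the group past 2-fold. Gli3, Zic1, Zic2 and Pax6 regulate transcription but remained because the deposited molecular function text does not use the excluded phrase for them. Numbl (-0.96), Zic2 (-0.82), the Notch ligand Dll1 (-0.71), Gpsm1 (-0.64) and Bmp7 (-0.51) were under 2-fold on the E15 side. The BMP receptor Bmpr1b (0.63) and the Notch modifier Rfng (0.49) were under 2-fold on the adult side, opposite to the ligands Bmp7 and Dll1.

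Of 11 trophic factors, receptors and signalling proteins, 5 were past 2-fold at E15 (45.5%) and 3 in the adult (27.3%), the latter near the 22.9% of all clusters. Cxcr4, the chemokine receptor that guides migrating progenitors, had 1.12 at E15 and -0.87 in the adult (3.97-fold). Ednrb, the endothelin receptor of neural crest derivatives, stood at -1.48, and Dok4 (-1.39), Slitrk6 (-1.32) and Bai2 (-1.24) were past 2-fold too. On the adult side, Nrn1, a membrane-anchored protein that promotes neurite growth, had -0.76 at E15 and 0.84 in the adult (3.01-fold). Camk1, a calcium-dependent kinase, had -0.69 and 0.77 (2.76-fold). Ntrk2, the receptor for brain-derived neurotrophic factor, had -0.47 and 0.59 (2.09-fold). All 3 had their lower value at E15, unlike Cxcr4. Gfra1, a GDNF co-receptor (-0.89), Cntf (-0.17, in a cluster shared with Zfp91-cntf) and Cck (0.34) were under 2-fold.

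The remaining 10 genes have no common role. Bex1, a small adaptor protein, had the widest gap of all 71, with 1.66 at E15 and -1.84 in the adult (11.3-fold). Pcsk2, the convertase that cleaves prohormones and neuropeptide precursors in secretory granules, had the widest gap on the adult side, with -1.50 at E15 and 1.40 in the adult (7.48-fold). The ubiquitin hydrolase Uchl1 (-1.47), the protease inhibitor Serpine2 (-1.47) and Bzw2 (-1.19) were past 2-fold at E15. Mbnl1 (0.96), a splicing regulator, and Tacc2 (0.97) were just under 2-fold on the adult side. Ndrg2 (0.30), the mitochondrial protease subunit Afg3l2 (0.24) and the peroxisomal Pex2 (0.23) differed little.

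Markers of several cell types also differed between the ages, in both directions. In bulk tissue, fewer cells of a type and less RNA per cell cannot be told apart. Beside the marker counts below stand the shares of all clusters past 2-fold, 24.4% at E15 and 22.9% in the adult. Of a list of 10 progenitor and radial glia markers, 5 had a value and all 5 were at least 2-fold higher at E15, from -2.73 to -1.01. Fabp7, Nes and Pax6 stand in that list as well as among the 71 genes. Markers of mesenchyme and matrix (6 of 8 with a value past 2-fold at E15, median -1.39), of endothelium (5 of 5, median -1.34) and of erythroid cells (5 of 7, median -2.47) also stood at E15. After re-centring, an alternative chosen for these markers after seeing the data, Pax6 and Emx2 (progenitors), Col1a2 (mesenchyme), Tie1 (endothelium), Cldn11, Slc1a3 and Lmx1a were no longer past 2-fold at E15, which left 3 of 5 progenitor, 5 of 8 mesenchymal and 4 of 5 endothelial markers, and Enpp2 was past it in the adult. Markers of neurons were split. Dcx (-2.29) and Nefm (-1.71) were past 2-fold at E15, Elavl4 (-0.90) was under 2-fold, and Camk2a (2.66), Syt1 (1.97), Slc17a7 (1.73) and Snap25 (1.52) were past it in the adult. Of the 4 adult ones, only Syt1 was in the gene-level table. Camk2a, Slc17a7 and Snap25, like the mesenchymal Pdgfra and the endothelial Tie1, had a value from the splicing list only. Past 2-fold yet outside the gene-level table, these genes did not meet its other limits, the authors' expression filter and corrected p. Past 2-fold in the adult were also 2 of 3 oligodendrocyte markers, Mbp (2.09) and Mobp (1.05), and 4 of 6 astrocyte markers. In the list of macrophages and MHC class II, the class II genes Cd74 (3.16), H2-Aa (2.53) and H2-Ab1 (1.56) were past 2-fold in the adult, while Csf1r (-0.92) and Ptprc (-0.15) were under 2-fold on the E15 side. The oligodendrocyte marker Cldn11 (-1.0002), at the threshold itself, and the astrocyte marker Slc1a3 (-1.11) were past 2-fold at E15. Of 14 choroid plexus epithelium markers, 5 had a value, with Prlr (7.87) and Kl (4.78) past 2-fold in the adult, Lmx1a (-1.14) at E15 and 2 under 2-fold. The absolute level of any marker cannot be read from centred values, so the tissue label could not be checked against them, and the part of these cell types in the differences of the 71 genes was not tested.

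**Figure D4:**
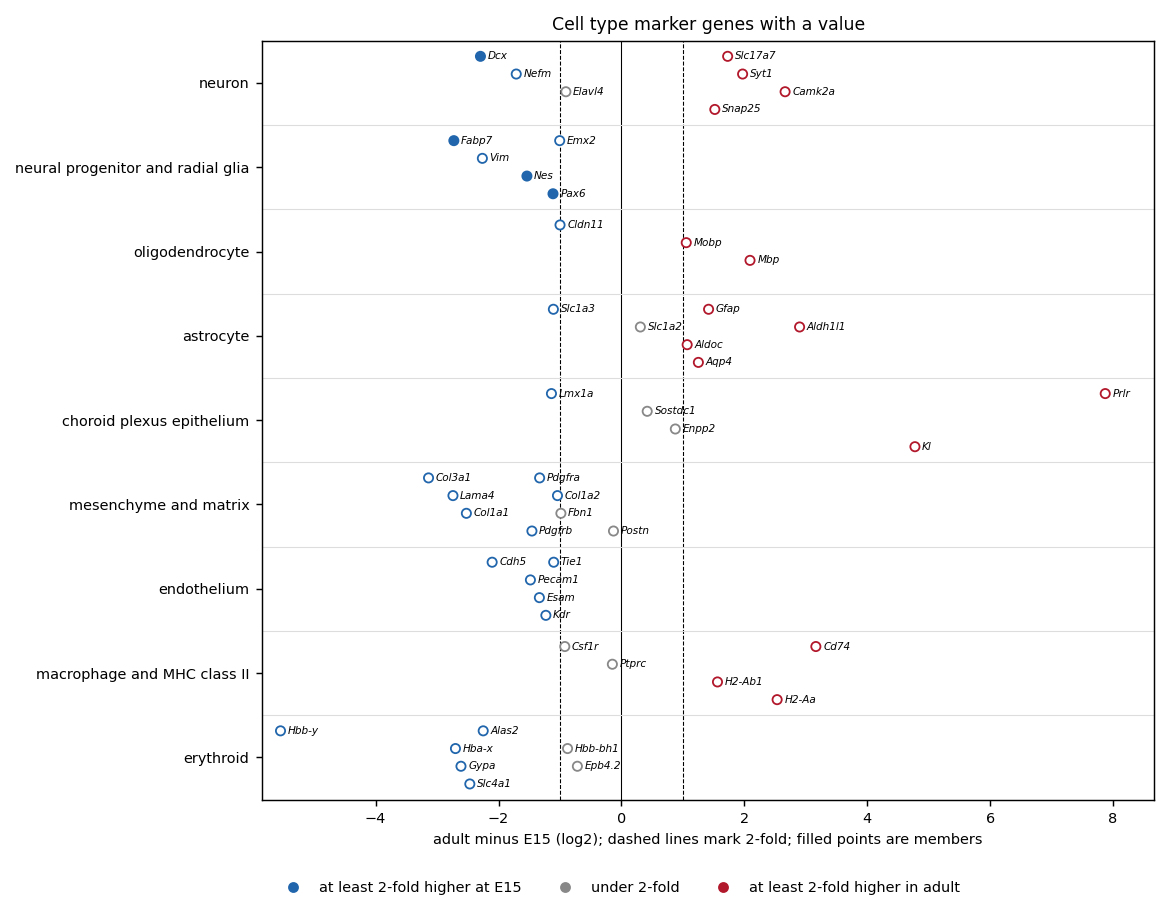
Difference adult minus E15 (log2) of marker genes of 9 cell types that had a value, with dashed lines at 2-fold and filled points for genes among the 71. Progenitor, endothelial and erythroid markers lie left of 0, while 4 of the 7 neuronal markers lie right of 1, of which only Syt1 was in the gene-level table.

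The exon arrays also gave a splicing index, the authors' signed score of how far single exons of a gene depart from its overall change, whose scale is not stated and which was deposited only at a size of at least 0.5. An index was held for 62 of the 71 genes, from 4 to 44 probe sets each, with a median size of 1.02 against 0.90 over all 3369 clusters with an index. The largest sizes were those of Sema6a (2.69), Fabp7 (2.20), Sema3a (2.08), Gas7 (-2.03) and Gli3 (1.90). All 5 were also at least 3-fold different between ages, and in each the index had the opposite sign to the difference adult minus E15. Opposite signs were found for 37 of the 62 genes (59.7%) and for 62.5% of all clusters with an index. Among genes past 2-fold the share was 67.7% (21 of 31), and among all clusters past 2-fold it was 77.5%. Dcx (-1.11), Robo1 (-0.94) and the B-type ephrins Efnb3 (-1.31) and Efnb1 (-0.69) had an index of the same sign as their difference, while that of Efnb2 (0.86) was opposite. The index of Fabp7 rests on 4 probe sets only, as does that of Cxcr4 (1.81). Among genes under 2-fold, Rgnef had an index of -1.65 over 36 probe sets.

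**Figure D5:**
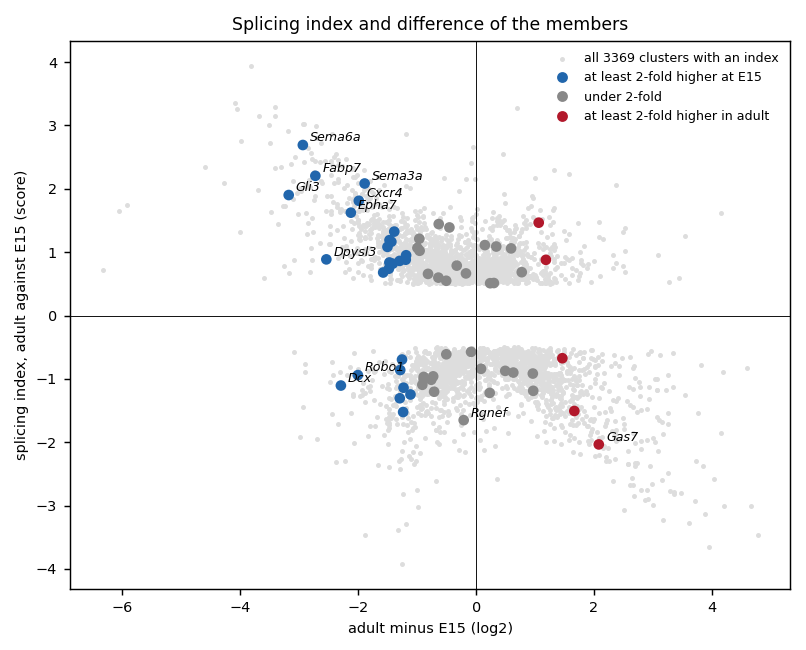
Authors' splicing index, a score without a stated unit, against the difference adult minus E15 (log2) for the 62 genes with an index, over the other clusters of the joined tables in the background. Among the 62 genes, Sema6a (2.69) is the highest point and Gas7 (-2.03) the lowest, and no point lies between -0.5 and 0.5, the authors' minimum.

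Promoter sequences were taken from RefSeq (build GRCm38.p6) as the 250 bases before each annotated start. A window was found for 58 of the 71 genes, 84 windows in all. Their median GC content was 58.4%, against 55.6% for 21263 windows of protein-coding genes. The letters GGGCGG (a GC box) stood on either strand in 48.8% of the 84 windows and in 42.6% of all windows, CCAAT in 29.8% and 35.4%, and TATAAA in 15.5% and 11.6%. The 34 windows of genes past 2-fold at E15 had a median GC content of 59.2%. They held GGGCGG in 44.1%, CCAAT in 32.4% and TATAAA in 11.8%. Sequences are given for a pair of genes high at E15 and for the gene highest in the adult, chosen after their values were seen, because they span the range from AT-rich to GC-rich starts. Their GC contents therefore do not describe the genes of either direction. The window of Plxna3, 2.44-fold higher at E15 and not printed, had a GC content of 68.0%. Capitals mark these letters on either strand, and a match is no evidence of a bound factor. The Dcx window, 1 of 2 for this gene, is chrX:143933220-143933469 on the minus strand, that of Robo1 is chr16:72662899-72663148 on the plus strand, and that of Pcsk2 is chr2:143545883-143546132 on the plus strand.
Dcx: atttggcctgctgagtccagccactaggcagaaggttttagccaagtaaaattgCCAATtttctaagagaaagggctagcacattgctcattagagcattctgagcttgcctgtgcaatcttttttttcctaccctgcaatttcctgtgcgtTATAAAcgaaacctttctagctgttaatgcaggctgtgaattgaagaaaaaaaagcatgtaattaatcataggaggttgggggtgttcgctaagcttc
Robo1: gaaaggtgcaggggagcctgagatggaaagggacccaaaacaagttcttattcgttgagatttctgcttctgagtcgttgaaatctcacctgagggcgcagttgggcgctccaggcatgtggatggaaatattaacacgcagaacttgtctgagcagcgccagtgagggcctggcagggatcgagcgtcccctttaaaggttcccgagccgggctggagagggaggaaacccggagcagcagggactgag
Pcsk2: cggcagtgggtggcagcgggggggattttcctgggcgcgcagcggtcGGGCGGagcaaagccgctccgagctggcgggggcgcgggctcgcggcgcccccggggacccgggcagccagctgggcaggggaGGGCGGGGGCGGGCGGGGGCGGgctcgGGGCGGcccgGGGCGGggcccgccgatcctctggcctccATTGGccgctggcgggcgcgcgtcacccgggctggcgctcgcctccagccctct
The Dcx window (4.91-fold higher at E15) had a GC content of 41.6%, with 1 TATAAA and 1 CCAAT. The Robo1 window (4.02-fold higher at E15) had 56.0% and none of the 3 motifs. The Pcsk2 window (7.48-fold higher in the adult) had 82.4%, with 7 GC boxes, overlapping ones counted, and 1 CCAAT.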

How the data were processed

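RNA of pooled lateral ventricular choroid plexus was labelled after 2 rounds of amplification and measured on Affymetrix Mouse Exon 1.0 ST arrays. The authors made the gene-level log2 values with Affymetrix Power Tools (RMA, a filter on the top 80th percentile of expression, and a per-gene comparison of ages at a Benjamini-Hochberg corrected p of 0.05 with a fold of at least 2) and merged the 3 arrays of each age into 1 deposited value. The authors made the deposited splicing index, a score, from exon-level PLIER values and an analysis of variance, and the number of probe sets behind it was deposited too. Columns of the authors' fold change and direction were not used, and neither was a further table of the clusters shared by both. Tool versions and the genome build are not given in the sources used here, and no array coordinates are printed. Depth does not apply to arrays, and their number limits the precision.

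Both tables were joined, 1 row per transcript cluster. The difference is the adult minus the E15 value, the fold is 2 to its size, and a gene was counted past the threshold at 2-fold or more. Groups were taken from the labelled developmental stage. Since 0 columns hold a single array, no test was run. Named were all members of the pathway lists that met the annotation rule, the 15 largest folds in each direction among those past 2-fold, the 5 largest indices, and other list genes only where past 2-fold. The remaining genes were added after their values were seen so that all 71 are accounted for, as were the cell type markers printed and Reln, Nrg1, Tgfb2 and Nfasc. A marker gene of the oligodendrocyte list is not reported here. The genes and lists were chosen with earlier results of these data known. Alternatives varied the fold threshold, table, shared clusters, repeated symbols, centring, annotation evidence, exclusion and process terms, index minimum and probe set minimum. Symbols were matched to RefSeq names, older symbols included. Work was done in Python 3.11.15 with matplotlib 3.10.9 for the plots and pandas 2.3.3, scipy 1.17.1 and numpy 2.4.6 for the values, and the counting was tested on simulated data.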

Additional observations from a re-analysis of the deposited data

How the results depend on the processing

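No paired analysis was possible because the deposited columns hold 1 merged value per age, and leaving out each replicate could not be run for the same reason. Of 46 alternatives for counts, shares and medians, 32 stayed near the reported value, 14 moved and 0 reversed. Some of the 32 could not move, so this tally is no measure of robustness. No symbol was repeated among the 71 genes, so keeping 1 cluster per symbol changed nothing. All 40 genes past 2-fold were in the gene-level table, so their counts were fixed there. At 3-fold, 11 of the 71 genes were higher at E15 and 4 in the adult, and at 4-fold 8 and 2. The 52 list genes gave 14 and 2 at 3-fold, and 7 and 0 at 4-fold. Shares of all clusters at 3-fold and 4-fold were not computed, so these counts have no background to be read against. For the 2-fold counts below, the shares of all clusters were 24.4% at E15 and 22.9% in the adult. In the gene-level table alone 82.5% were higher at E15, the cause of which was not tested. Counting only annotations with evidence other than electronic left 2 genes past 2-fold in the adult, and 26 at E15. Without the exclusions 51 of 114 genes were past 2-fold at E15 and 11 in the adult, as more genes were admitted. With axon guidance or axonogenesis alone the counts were 18 and 1 of 35, and again the cause was not tested. Re-centring each age on the median of all clusters changed the sign of Rufy3 alone among the 71 genes, whose median was then -0.81. Selection of clusters by the authors' thresholds limits every share given. Centred values do not show how far a signal stood above background.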
